A study of Mus musculus with 2 samples.

Results

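The plasminogen activation system was examined through 6 genes in mouse early mesodermal cells: the activators Plau and Plat, the urokinase receptor gene Plaur, and the serpin genes Serpine2, Serpinb6a and Serpinf1. Members were taken by their symbol in the platform's probe annotation, with the brightest probe kept where a gene had several. Each of the 6 had 1 probe, out of 16444 named genes measured. The genes had been chosen with their differences between these arrays in view, so the values below are a description and no test is attached to them.

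Embryonic stem cells were grown on OP9 cells, a mouse stromal line that favours blood formation, and cells with Flk-1 on their surface were sorted. The labels give a coculture of 4 days in the protocol and day 4.5 in the sample descriptions. In the gene-trapped sample both alleles of AU019823 were disrupted, and the RNA came from 300000 cells. In the revertant sample the labels call the AU019823 genotype almost that of the wild type, and the RNA came from 350000 cells. Both samples share the stem cell origin, the OP9 coculture and the sort for Flk-1. The labels give them different code numbers, cl.3 for the gene-trapped and cl.4 for the revertant sample, without saying what these mean. Each group has 1 array and no replicate, so every difference compares 2 libraries, has no replicate error, and cannot separate genotype from culture or line.

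Urokinase (Plau) and tissue plasminogen activator (Plat) are serine proteases that cut plasminogen into plasmin, a broad protease that dissolves fibrin and degrades matrix. The urokinase receptor, encoded by Plaur, is a lipid-anchored protein that holds urokinase at the cell surface, where plasmin forms during cell migration and vessel growth. Serpins are inhibitors that trap their target protease by offering it a bait loop. Protease nexin 1, encoded by Serpine2, traps thrombin, urokinase, tissue plasminogen activator and plasmin. Serpinb6a encodes an intracellular serpin of the ovalbumin-like clade. Serpinf1 encodes pigment epithelium-derived factor, a secreted member of the fold that restrains vessel growth and is known not to inhibit proteases, so the name inhibitor does not suit all 3 serpin genes.

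Serpine2 and Serpinf1 are the members with the largest differences, and their upstream sequences are shown because these 2 genes differed in opposite directions. The RefSeq promoter table of build GRCm38.p6 held 4 of the 6 members, without Plau and Plat. The windows are the 250 bases before the annotated start, on the minus strand, chr1:79858666-79858915 for Serpine2 and chr11:75422624-75422873 for Serpinf1. Capitals mark matches on either strand to the GC box motif GGGCGG, the box motif CCAAT, the TATA box motif TATAAA, the hypoxia response core motif ACGTG or the AP-1 site motif TGANTCA.
Serpine2: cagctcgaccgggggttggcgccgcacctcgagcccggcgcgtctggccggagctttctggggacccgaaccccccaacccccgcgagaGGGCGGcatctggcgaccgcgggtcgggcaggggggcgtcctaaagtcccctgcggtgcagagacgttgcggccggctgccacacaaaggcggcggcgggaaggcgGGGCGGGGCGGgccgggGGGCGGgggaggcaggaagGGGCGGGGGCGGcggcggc
Serpinf1: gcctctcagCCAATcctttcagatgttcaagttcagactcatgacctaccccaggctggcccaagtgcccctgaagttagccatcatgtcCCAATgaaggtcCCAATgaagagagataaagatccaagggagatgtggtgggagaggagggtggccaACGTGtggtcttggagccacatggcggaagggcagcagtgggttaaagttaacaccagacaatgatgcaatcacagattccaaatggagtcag

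The Serpine2 window held GGGCGG 6 times, with first bases 13 to 161 bases before the start, and none of the other capitalised motifs. GGGCGG occurs in 32.7% of the 32851 windows of this length. The Serpinf1 window held no GGGCGG, but CCAAT 3 times, 148 to 241 bases before the start, and ACGTG 1 time at 93 bases. CCAAT occurs in 33.8% of all windows and ACGTG in 16.6%. The E-box CANNTG, searched without capitals, occurred 1 time for Serpine2 and 4 times for Serpinf1, and occurs in 66.2% of all windows. The sequence CACGTG would count under both ACGTG and CANNTG. The Serpine2 window had a GC content of 78.8% with a ratio of observed to expected CpG of 0.912. That of Serpinf1 was 51.6% with a ratio of 0.121, against medians of 52.4% and 0.374 over all windows. The Plaur window held TGANTCA 1 time, 69 bases before the start, a motif in 6.75% of windows. These are matches of letters, and no binding was measured.

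Scanner signals are given as the median of the spot in linear intensity units, which have no absolute scale, and a probe's signal says nothing about another gene's level. Background was set at the mean of 2736 blank spots plus 2 SD, a limit of 24.99 for the revertant and 22.3 for the gene-trapped array. The revertant array was brighter, with a median probe signal of 47.5 against 38.6. Differences are therefore gene-trapped minus revertant after background correction and quantile normalization, on the log2 scale, which are called log2 differences below. Spots of 2 positive controls differed between the arrays with an SD of 0.108 and 0.0989 in log2 ratio, over 24 spots each, which measures spots and not cultures. By this limit 13753 named genes gave signal over background in both samples, with a median log2 difference of 0.01. In counts of genes below, higher and lower mean a difference of 2-fold or more.

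Of the early mesoderm markers, 10 of 10 were above background on both arrays, among them Kdr, which encodes Flk-1, with signals of 1025 in the revertant and 537 in the gene-trapped sample. After normalization Kdr, the gene of the sorted protein, had a log2 difference of -0.65 (1.57-fold lower). For the macrophage and myeloid markers 3 of 9 were above background on both arrays, and the leukocyte gene Ptprc was on neither. The probes of 15 of 16 stromal markers were above background on both arrays, without the decorin gene Dcn. For endothelial markers the number was 9 of 10, for endoderm markers 9 of 12 and for pluripotency markers 7 of 8. Of all 16444 named genes 13753 passed the same limit. Counts near that share are not read as the presence of a cell type. Median log2 differences were 0.10 for early mesoderm, -0.25 for stromal, -0.14 for endoderm, -0.56 for endothelial, 0.02 for myeloid and 0.07 for pluripotency markers. At least 2-fold higher were the early mesoderm genes Mixl1 (1.99) and Etv2 (1.30) and the pluripotency genes Tdgf1 (1.88) and Dppa5 (1.21). At least 2-fold lower were 3 stromal and 3 endothelial markers, and no endoderm or myeloid marker was 2-fold apart. The sort was on Flk-1, and in bulk RNA fewer cells of a type and less RNA per cell cannot be told apart.

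Of the 6 members 5 were above background on both arrays. Serpine2 was the 1 member at least 2-fold higher in gene-trapped cells, and Serpinf1 the 1 member at least 2-fold lower. Of the 13753 named genes above that limit on each array 0.334% were higher and 1.08% lower by this rule. The members were picked on this contrast, so nothing is read from their share. The other 3 lay close to the typical gene, and Plau stood at the background limit. The median over the 5 was 0.02, beside 0.01 over all genes.

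**Figure D1:**
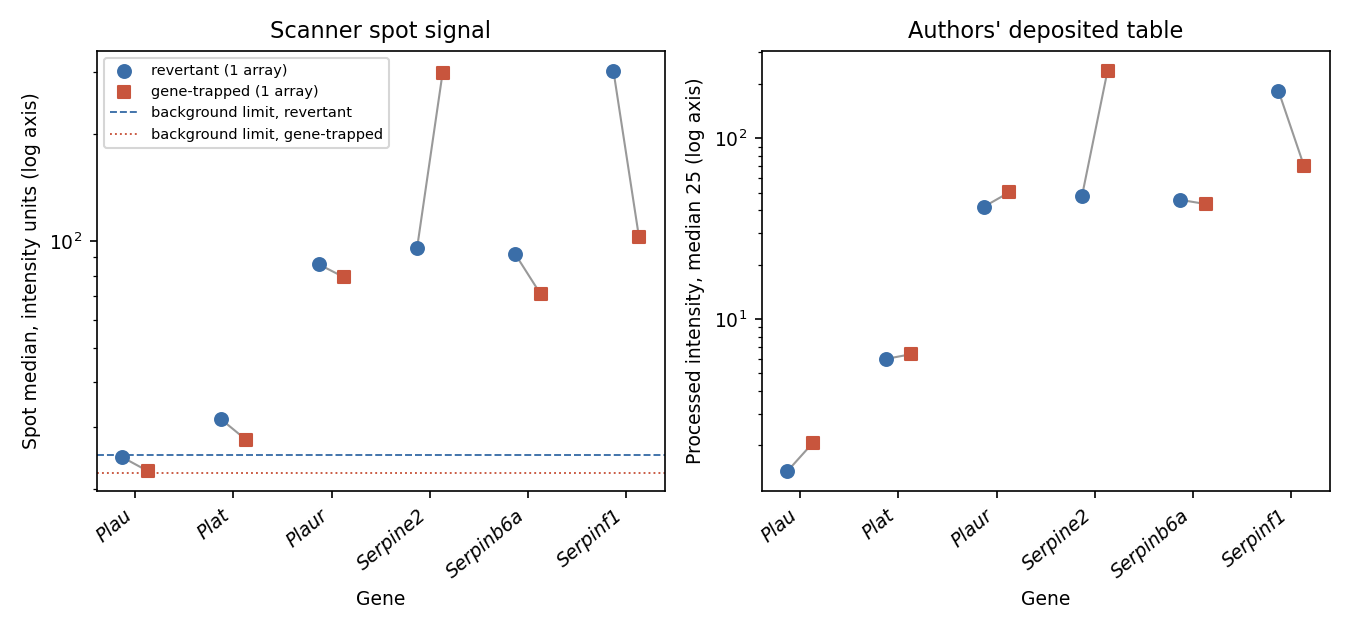
Signal of the 6 genes on the revertant array (circles) and the gene-trapped array (squares), 1 array each; left, scanner spot median in intensity units with the background limit of each array as a line, right, the authors' deposited processed intensity, both on log axes. Serpine2 goes from 95.5 to 297 and Serpinf1 from 302 to 103 on the scanner scale, while Plau lies at the limits.

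Both activators gave little signal. The Plau probe read 24.6 in the revertant and 22.5 in the gene-trapped sample. The revertant value lay under that array's limit, and the gene-trapped value 0.248 above its own. It was thus above background on the gene-trapped array only, by a margin smaller than the SD of the blank spots (1.26 and 1.07), and its raw signal was higher on the other array. Set against the lowest normalized signal detected on the revertant array, the gene-trapped value gave a bound of 1.01-fold, and the log2 difference was 0.02. So close to background no direction is read from either value, and the bounds given below are meant in the same way. In the authors' deposited table Plau had 1.44 and 2.07, where the median probe has 25.

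Plat read 31.6 in the revertant and 27.6 in the gene-trapped sample, 6.59 and 5.31 above the limits. Its log2 difference was 0.02 (1.01-fold). The authors' table gave 6.01 and 6.39. On these arrays the tissue-type activator was detected in both samples with signals near background, where the processing draws differences towards 0.

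Plaur, the receptor, was well above background, at 86.0 in the revertant and 79.0 in the gene-trapped sample. After normalization the gene-trapped sample was 1.12-fold higher, a log2 difference of 0.17. The raw signal lay the other way, as did the median probe signals of the arrays. The authors' table gave 41.8 and 50.3. Among the 500 genes nearest to Plaur in mean signal, 204 had a larger absolute difference.

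Serpine2 had the largest difference of the members. Its probe read 95.5 in the revertant and 297 in the gene-trapped sample, so the gene-trapped signal was the higher one even before the brighter revertant array was allowed for. The log2 signals were 6.86 and 8.50 and the log2 difference 1.64 (3.11-fold higher). That difference was at rank 8 from the highest among the 13753 genes. Of the 500 genes nearest in mean signal 3 had a larger absolute difference, and the middle 95% of them ran from -1.10 to 0.60. The authors' table gave 48.0 and 236 (4.93-fold). That table takes off about the blank level and adds no offset, which widens folds by construction. In those deposited values 1 member of the 6 was at least 2-fold higher, where 2.01% of all genes with both values were, and 1 was lower, where 4.02% were. With the scanner's local background subtracted the difference was smaller, 1.13, and still over 2-fold. That local background was low at the Serpine2 spot, 17.7 for the revertant and 23.0 for the gene-trapped array. The early mesoderm and pluripotency markers at least 2-fold higher, named above, were higher in the same sample as Serpine2. Other detected markers of these lists lay below 0, 5 of 10 for early mesoderm and 2 of 7 for pluripotency. Among them were Tal1 (-0.69) and Klf4 (-0.36). Summed raw signals, not scaled for the brighter revertant array, were 3648 and 4340 for the early mesoderm list and 2047 and 3281 for the pluripotency list. Etv2 alone made up 810 and 1739 of the first, and Tdgf1 707 and 2249 of the second. The part of these marker genes in the Serpine2 value was not tested.

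**Figure D2:**
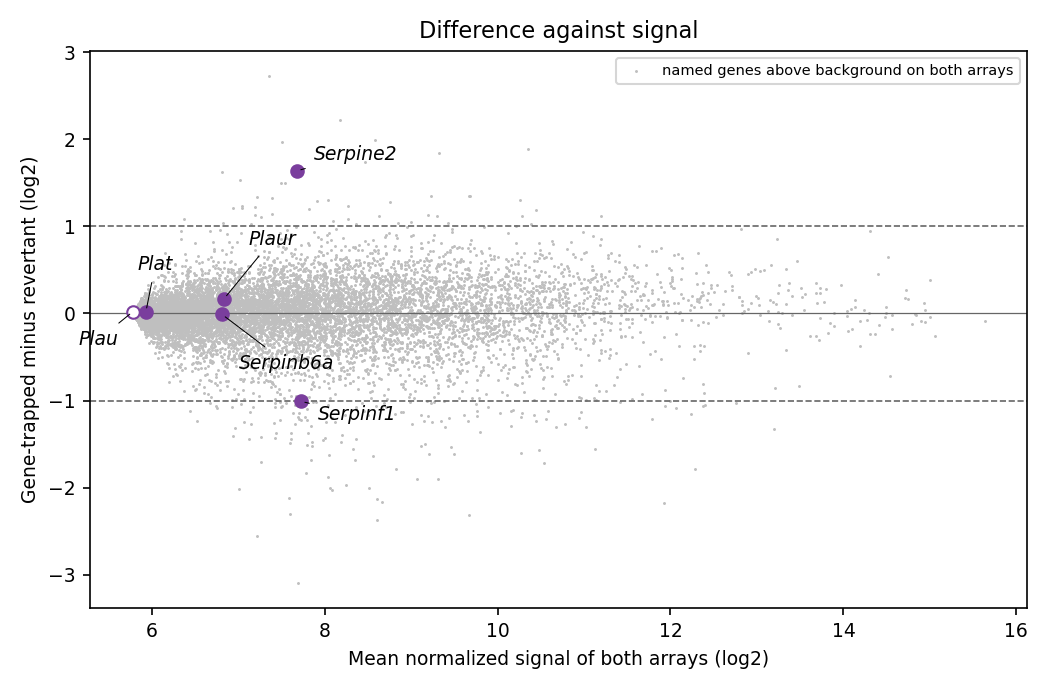
Log2 difference (gene-trapped minus revertant) against the mean log2 signal of both arrays for the named genes above background on both arrays (grey), with the 6 genes in purple and Plau, which was above background on 1 array, as an open circle; dashed lines mark 2-fold. Serpine2 lies at 1.64 and Serpinf1 at -1.01, and the 4 others lie between -0.01 and 0.17.

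Serpinb6a read 91.9 in the revertant and 70.8 in the gene-trapped sample. The log2 difference was -0.01, which turned to 0.03 under 75th percentile scaling and to 0.00 with the local background subtracted. The local background beside the spot was 74.3 and 56.3, most of the signal itself. Of the 500 genes nearest in signal, 472 had a larger absolute difference. Its close relatives Serpinb6b and Serpinb6c had log2 differences of -0.11 and 0.04. Transcripts of related genes in this cluster may share a probe's signal. Probe sequences were not used here, so the 3 values are not known to be separate.

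Serpinf1 was the member that differed downward. Its probe read 302 in the revertant and 103 in the gene-trapped sample. The log2 signals were 8.23 and 7.22, and the log2 difference was -1.01 (2.01-fold lower), just past 2-fold and at rank 147 from the lowest. Of the 500 genes nearest in signal 17 had a larger absolute difference, and their middle 95% ran from -1.07 to 0.62, a range that holds the Serpinf1 value. The authors' table gave 184 and 70.5 (2.60-fold lower). With the local background subtracted the difference was -0.46 and no longer reached 2-fold. The local background beside the Serpinf1 spot was 191 for the revertant and 39.2 for the gene-trapped array.

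Serpinf1 is widely expressed by fibroblasts and other stromal cells. The stromal marker list moved with it in part: 9 of its 15 detected genes lay below 0 and 3 were at least 2-fold lower, and the list's median was -0.25. Its summed raw signal, not scaled for the brighter revertant array, was 8900 in the revertant and 4932 in the gene-trapped sample, of which the smooth muscle actin gene Acta2 alone made up 3603 and 1195. The collagen gene Col1a1 read 328 and 74.5, a log2 difference of -1.49. Above 0 lay 6 of the 15, among them Tagln, which read 2840 and 2706, with a log2 difference of 0.25. Dcn was above background on neither array. The part of stromal cells in the Serpinf1 value was not tested.

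The difference between the 2 leading serpin genes held in direction in every setting tried, as the plot of differences by setting shows. Serpine2 ran from 1.13 to 2.30 and Serpinf1 from -1.38 to -0.46. The range for Plaur was 0.03 to 0.27, for Plat -0.04 to 0.22 and for Serpinb6a -0.11 to 0.03. Plau ran from 0.02 to 0.52, the highest being the authors' table. Under 75th percentile scaling the median of all genes was 0.15, so the 0.27 of Plau and 0.22 of Plat in that setting are to be read against it.

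**Figure D3:**
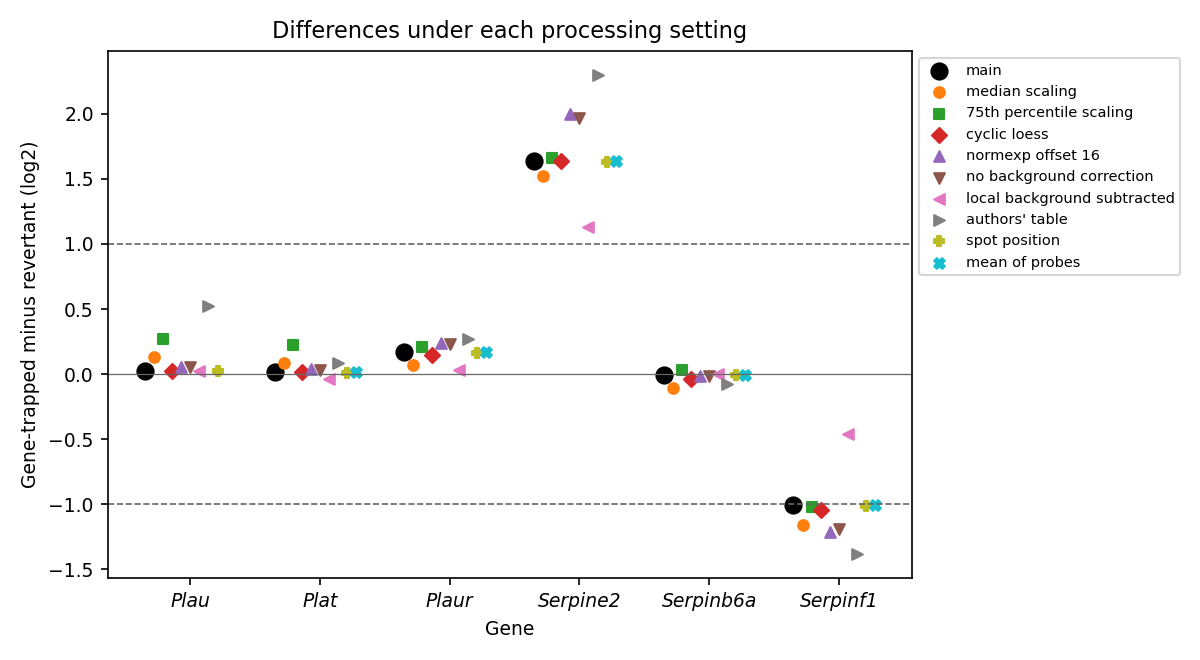
Log2 difference (gene-trapped minus revertant) of each gene under the main setting (black) and the alternatives (coloured); dashed lines mark 2-fold. All Serpine2 points lie above the upper line, and the Serpinf1 points lie at or below the lower line apart from the one with local background subtracted, at -0.46.

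Likeness to the 2 leading genes was taken as the distance between pairs of log2 signals over the 2 arrays, which is the whole of the information available. Nearest to Serpine2 were the cell cycle inhibitor gene Cdkn1a (distance 0.21, log2 difference 1.50), the homeobox gene Gsc (0.28, 1.50) and the cytochrome oxidase subunit gene Cox6b2 (0.34, 1.97). Nearest to Serpinf1 were the insulin-like growth factor receptor gene Igf1r (0.08, -0.95), the glycogen synthase gene Gys1 (0.09, -1.02) and the tryptophan dioxygenase gene Tdo2 (0.10, -1.14).

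The rest of the system was described by 6 lists of genes, chosen for their roles but with earlier results of these data known. Their counts are therefore a description. Together they name 136 genes, of which 120 had a named probe and 97 were above background on both arrays. None of the 97 was at least 2-fold higher and 3 were at least 2-fold lower: Ctsl, Lrpap1 and Vldlr. The median over the 97 was -0.02, and 42.3% lay above 0 against 53.3% of all genes. In the authors' table both values were given for 103 list genes, of which 3 (2.91%) were higher and 14 (13.6%) lower, beside 2.01% and 4.02% of all genes with both values. The 3 higher ones were St14 (5.12 and 20.7, 4.04-fold), Sdc1 (2.13-fold) and Timp1 (2.11-fold). Of the 14 lower ones the largest folds were those of F10 (6.27), Reck (3.04), Serping1 (3.01), F2rl3 (2.45), Mmp3 (2.41), Tfpi (2.35) and F2rl2 (2.35). The rest of the 14 were Ctsl (2.29), Vegfa (2.28), Mmp11 (2.12), Lrpap1 (2.06), Sdc4 (2.04), Cav1 (2.04) and Igfbp5 (2.03).

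Among other fibrinolysis genes 0 of 13 were 2-fold apart, and the median was -0.01. The 2 parts of the annexin A2 complex, a cell surface receptor for plasminogen and tissue plasminogen activator, differed in opposite directions. Anxa2 read 4887 in the revertant and 2110 in the gene-trapped sample, a log2 difference of -0.92 (1.90-fold lower). Its partner S100a10 read 8291 and 8876, a log2 difference of 0.50 (1.41-fold higher). Both kept their sign in all settings, Anxa2 from -1.13 to -0.84 and S100a10 from 0.24 to 0.68. Anxa2 passed 2-fold under median scaling (-1.06) and with the local background subtracted. Serbp1, which encodes an RNA-binding protein, had 0.41, and the enolase gene Eno1, whose product binds plasminogen at the cell surface, had -0.26. The plasminogen gene Plg, singled out for its role, read 61.1 and 45.8, with a log2 difference of -0.06. Serpinb2 and Serpina5 were above background on the gene-trapped array only, with bounds of 1.02-fold and 1.01-fold, though their raw signals were higher on the revertant array.

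Among genes of receptor clearance and urokinase receptor partners 18 were detected. Of these 14 lay below 0, 2 were at least 2-fold lower and 0 higher, with a median of -0.07. Lrpap1, the chaperone that keeps receptors of the low-density lipoprotein receptor family free of ligand on their way to the surface, read 1800 in the revertant and 684 in the gene-trapped sample. Its log2 difference was -1.11, and it passed 2-fold in every setting tried. Vldlr, a receptor that takes up complexes of serpin and protease, read 1313 and 524, with a log2 difference of -1.04. It fell short of 2-fold under 75th percentile scaling (-0.997), in the authors' table (1.97-fold) and with the local background subtracted (-0.85). The imprinted mannose 6-phosphate receptor gene Igf2r had -0.83, which turned to 0.05 with the local background subtracted. Cav1, a caveolar coat gene, had -0.62. Lrp1, the main clearance receptor of Serpine2 complexes and singled out for that role, read 232 and 170, with a log2 difference of -0.08.

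In the thrombin and tissue factor list, which holds the protease that protease nexin 1 traps best, 0 of 12 were 2-fold apart and the median was 0.00. The thrombin receptor gene F2r read 3753 in the revertant and 1959 in the gene-trapped sample, a log2 difference of -0.64. F10, for coagulation factor X, read 67.0 and 25.6, with a log2 difference of -0.63 that was 6.27-fold in the authors' table, near background in gene-trapped cells. F2rl3, another receptor of the thrombin family, had -0.36, which turned to 0.05 with the local background subtracted and was 2.45-fold lower in the authors' table. The tissue factor gene F3 had 0.36. The thrombin gene F2 itself was above background on neither array. F2rl1 and F8 passed the background limit on the revertant array only and Proc on the gene-trapped array only. The bound was 1.01-fold for F2rl1 and 1.04-fold for Proc, and no bound above 1 could be given for F8. Of the 9 detected endothelial markers 8 lay below 0 and 3 were at least 2-fold lower: Flt1 (-1.53), Tek (-1.31) and Pecam1 (-1.27). The endoglin gene Eng lay above 0, at 0.72. Summed raw signals of the list, not scaled for the brighter revertant array, were 2192 and 762, of which Flt1 alone made up 1263 and 344. The part of endothelial cells in the values of F2r, F10 and F2rl3 was not tested.

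In the main setting the other serpins differed little. Of 14 detected, 0 were 2-fold apart, the median was 0.03 and the range -0.26 to 0.31, beside 1.64 for Serpine2 and -1.01 for Serpinf1. That comparison is uneven, because the 2 members were chosen with their differences in view. Apart from Serpinb9b (213 and 212), the other serpins were also dimmer than both members on both arrays. The offset draws differences of dim genes towards 0. The largest were the granzyme inhibitor relatives Serpinb9b at 0.31 and Serpinb9 at 0.15, the complement inhibitor gene Serping1 at -0.26 and the elastase inhibitor gene Serpinb1a at 0.12. Serping1 read 43.0 and 25.3 and was 3.01-fold lower in the authors' table. Serpinb1b was above background on the revertant array only and Serpinb3a on the gene-trapped array only, with bounds of 1.01-fold and 1.03-fold, and 7 were on neither.

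Matrix proteases and their inhibitors had a median of -0.01, with 12 of 24 above 0. Ctsl, for the lysosomal protease cathepsin L, read 3005 in the revertant and 1022 in the gene-trapped sample. Its log2 difference was -1.27 (2.41-fold lower), and it passed 2-fold in every setting tried. Reck, a membrane-anchored inhibitor of matrix metalloproteases, read 154 and 53.3, with -0.87 in the main setting and 3.04-fold lower in the authors' table. Mmp11 had -0.61, and the metalloprotease inhibitor gene Timp1 had 0.55. Mmp16 and Timp4 passed the background limit on the revertant array only, by bounds of 1.004-fold and 1.02-fold.

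Among plasmin substrates 12 of 16 lay below 0 with a median of -0.07, and 0 were 2-fold apart. Vegfa, a growth factor for vessels whose matrix-bound forms plasmin can release, read 211 in the revertant and 83.8 in the gene-trapped sample, a log2 difference of -0.77. The basement membrane gene Nid1 had -0.46 and the latent growth factor binding gene Ltbp1 -0.41. The fibronectin gene Fn1 read 3649 and 3850.5, with a log2 difference of 0.36. Fgg was above background on the revertant array only, by a bound of 1.01-fold.

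**Figure D4:**
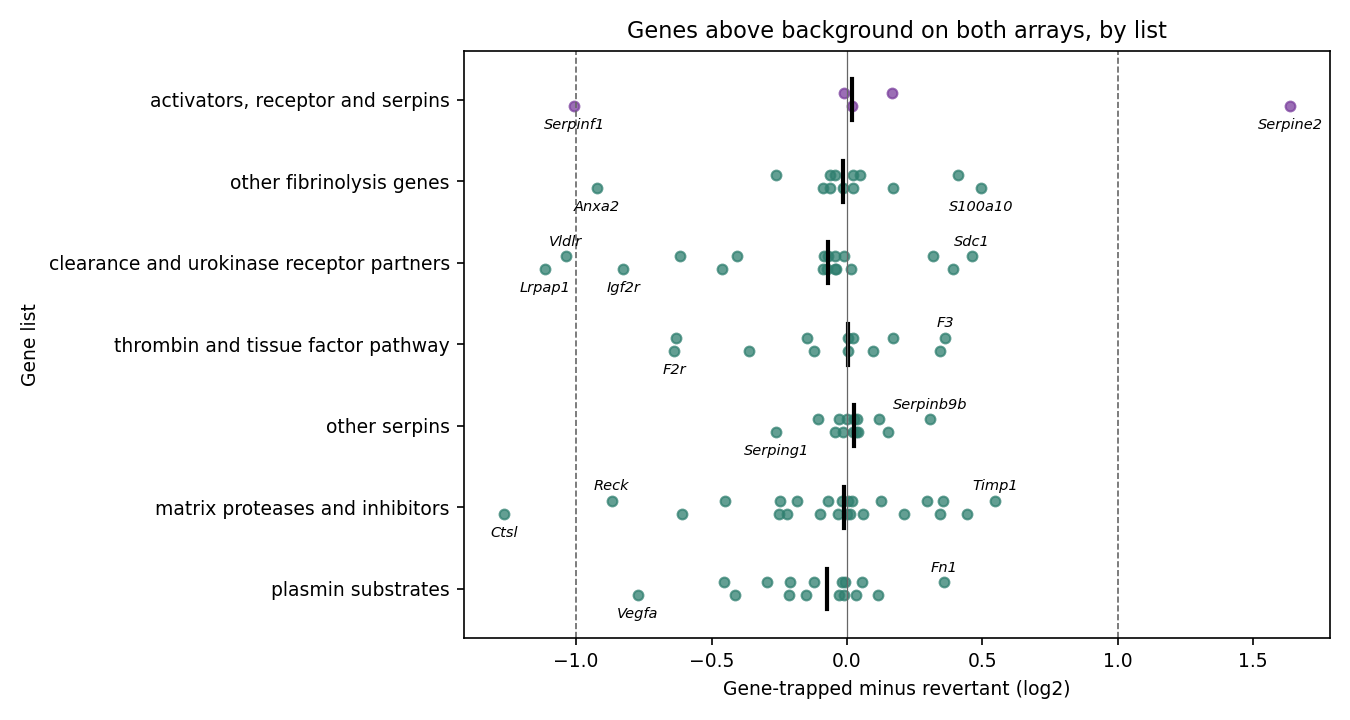
Log2 difference (gene-trapped minus revertant) of each gene above background on both arrays, by list, with the list's median as a black bar and 2-fold as dashed lines. Serpine2 is the 1 point beyond the upper line, at 1.64, and Serpinf1, Lrpap1, Vldlr and Ctsl lie beyond the lower line.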

How the data were processed

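Total RNA of 2 samples, 1 array each, was measured after amplification and Cy5 labelling on a TORAY array, per the labels' protocols. The deposited scanner files hold linear intensity, the spot median at 635 nm, read at 3 gains joined by least squares per the file headers. The authors also deposited a processed intensity table. Set against the scanner values it is spot signal less about the blank mean over 1 constant per array, with column medians of 25, and its direction is the same; how it was made is not given in the sources used here.

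Spot medians were corrected with normexp (offset 50, no local background) in limma 3.58.1 under R 4.3.3, control spots and 2 quality-flagged probes were left out, and arrays were quantile-normalized and put on log2. The offset shrinks differences of dim genes. Scripts (Python 3.11.15, numpy 2.4.6, pandas 2.3.3, matplotlib 3.10.9) were tested on simulated data. The number of arrays limits precision, and no p-value is given. Named are the 6 genes, up to 4 genes per list by size and all at least 2-fold apart, genes above background on 1 array only, and the 3 genes nearest in signal to the leading members. Also named are the 3 list genes at least 2-fold higher and the 14 at least 2-fold lower in the authors' table. The members, lists, motifs and alternatives were chosen with earlier results of these data known. The alternatives were cyclic loess, median and 75th percentile scaling, subtraction of the local background, offset 16, no background correction, the authors' table, block position, mean of probes, no filter and a limit of 5 SD. Names come from the platform annotation and can be old.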

Additional observations from a re-analysis of the deposited data

How the results depend on the processing

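No paired analysis was possible because neither group has a second array. Serpine2 stayed at least 2-fold higher in all settings and Serpinf1 negative in all. With the local background subtracted Serpinf1 came to -0.46, so 0 members were lower, Plat turned to -0.037 and Serpinb6a to 0.0029. Under 75th percentile scaling Serpinb6a turned to 0.028. List genes at least 2-fold lower numbered 5 with offset 16, 5 without background correction and 14 in the authors' table, against 3. Higher ones numbered 3 in the authors' table and 1 with the local background subtracted, against 0. A smaller or absent offset widens folds of dim genes by construction; otherwise the cause was not tested. Over all genes, 46 were higher and 148 lower in the main setting. These were 87 and 238 with offset 16, 84 and 227 without background correction, 285 and 571 in the authors' table over its 14203 genes, and 280 and 185 after local subtraction. The named list genes gave 192 values in other settings: 173 kept sign and side of 2-fold, 14 passed 2-fold, 3 fell under it and 2 turned sign. Signal close to background limits Plau and Plat, and signal close to the local background limits Serpinb6a.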

Other observations

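Differences of the size seen for Serpine2 and Serpinf1 were not found at their chromosomal neighbours in the main setting. In RefSeq gene order the 2 protein-coding genes on each side of Serpine2 had log2 differences of -0.04 (Wdfy1), 0.11 (Mrpl44), 0.01 (Fam124b) and -0.14 (Cul3), against 1.64 for Serpine2. Beside Serpinf1 they were 0.37 (Rpa1), 0.11 (Smyd4), 0.05 (Serpinf2) and -0.15 (Wdr81), against -1.01. Serpinf2, the neighbour of Serpinf1, encodes the plasmin inhibitor antiplasmin, and its probe read 37.1 and 32.9. The offset shrinks differences at such dim signals. Fam124b read 25.4 and 22.7, near the background limits, so nothing is read from its value. Flanking Plat, the DNA polymerase gene Polb had 0.46 and Ikbkb 0.28, and beside Serpinb6a the quinone reductase gene Nqo2 had 0.43. These genes were chosen by place alone, after the values of the members were known.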
